A study of Homo sapiens with 12 samples.

Results

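The 10 genes described here are the inflammatory interleukins and chemokines IL1A, IL1B, IL6, IL8 (now CXCL8), IL11, IL24, LIF, CXCL1, CXCL2 and CXCL3. They were chosen by symbol from the 60234 genes of the count table, with earlier results of these data known. All 10 passed the filter on low counts, as did 22668 genes in all. RNA sequencing was run on MDA-MB-231, an established human line of triple-negative breast cancer, as 2 populations. Fast cells had been captured from the line by their trajectory, and parental cells were the line itself, with no other treatment named in the labels for either. Each population was sequenced in 2 batches of 3 libraries, so 4 groups of 3 libraries were compared: fast and parental cells of batch 2, and fast and parental cells of batch 1. The series calls the libraries of a batch technical replicates and speaks of 2 biological replicates. The p-values thus measure the spread between these libraries, which may be technical. Those over both batches also take in how far the effects of the 2 batches differ. Whether each batch was a separate capture is not stated in the labels or notes, and each fast population is bulk RNA of many cells, in which fewer cells of a type and less RNA per cell cannot be told apart.

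These genes encode secreted signals that cells release in inflammation, and many tumor lines secrete some of them. IL1A and IL1B bind the IL-1 receptor, which signals through MYD88 to the transcription factors NF-kappaB and AP-1, and these in turn switch on IL6, IL8 and the CXCL genes. IL6, IL11 and LIF belong to the IL-6 family and share the signalling receptor gp130, encoded by IL6ST, which acts through JAK kinases and STAT3. IL8, CXCL1, CXCL2 and CXCL3 attract neutrophils through the receptor CXCR2, and IL24 is a member of the IL-10 family. The messenger RNAs of several of them carry AU-rich elements and are short-lived, and proteins such as ZFP36 speed their decay.

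CXCL1 fell in fast cells of both batches, and IL8 and CXCL3 fell in one and rose in the other. CXCL2 is the other of the 10 genes in their cluster, IL24 differed most between batches and IL11 rose in both. The promoters of these 6 genes are shown here. Each runs from 250 bases before to 50 bases after the annotated start of transcription, 5′ to 3′ on the gene's strand, from RefSeq on build GRCh38.p14. A total of 9 of the 10 genes had an entry, LIF being the one that was not used, and IL1A had 2 entries. Capitals mark matches on either strand to a kappaB motif and an AP-1 motif. The kappaB motif was written GGANTTTCC, a single form of the sites that NF-kappaB binds, and the AP-1 motif TGANTCA. IL8 lies at chr4:73740319-73740618 on the plus strand and CXCL1 at chr4:73869143-73869442 on the plus strand. CXCL3 lies at chr4:74038640-74038939 and CXCL2 at chr4:74099146-74099445, both on the minus strand. IL24 lies at chr1:206897193-206897492 on the plus strand and IL11 at chr19:55370414-55370713 on the minus strand.
IL8: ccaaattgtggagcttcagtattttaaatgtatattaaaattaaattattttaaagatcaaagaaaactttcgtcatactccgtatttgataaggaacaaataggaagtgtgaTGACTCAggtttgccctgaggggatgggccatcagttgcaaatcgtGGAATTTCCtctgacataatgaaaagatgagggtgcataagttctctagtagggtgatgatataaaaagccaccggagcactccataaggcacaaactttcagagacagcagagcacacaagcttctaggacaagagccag
CXCL1: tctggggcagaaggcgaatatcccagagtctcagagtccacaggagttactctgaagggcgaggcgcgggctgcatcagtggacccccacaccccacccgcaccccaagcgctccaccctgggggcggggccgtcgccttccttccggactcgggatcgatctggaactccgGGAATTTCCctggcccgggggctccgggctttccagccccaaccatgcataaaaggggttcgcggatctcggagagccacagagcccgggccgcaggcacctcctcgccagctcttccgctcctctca
CXCL3: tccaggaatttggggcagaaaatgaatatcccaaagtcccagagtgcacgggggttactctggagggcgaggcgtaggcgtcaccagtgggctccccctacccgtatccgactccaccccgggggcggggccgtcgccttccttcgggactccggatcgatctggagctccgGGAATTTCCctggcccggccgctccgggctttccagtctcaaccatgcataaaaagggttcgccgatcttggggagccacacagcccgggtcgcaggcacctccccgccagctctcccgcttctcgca
CXCL2: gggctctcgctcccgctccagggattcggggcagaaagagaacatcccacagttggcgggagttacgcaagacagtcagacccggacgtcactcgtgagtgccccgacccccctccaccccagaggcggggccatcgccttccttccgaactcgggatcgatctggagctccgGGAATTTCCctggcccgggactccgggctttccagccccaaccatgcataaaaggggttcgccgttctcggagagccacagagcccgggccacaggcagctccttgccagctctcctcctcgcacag
IL24: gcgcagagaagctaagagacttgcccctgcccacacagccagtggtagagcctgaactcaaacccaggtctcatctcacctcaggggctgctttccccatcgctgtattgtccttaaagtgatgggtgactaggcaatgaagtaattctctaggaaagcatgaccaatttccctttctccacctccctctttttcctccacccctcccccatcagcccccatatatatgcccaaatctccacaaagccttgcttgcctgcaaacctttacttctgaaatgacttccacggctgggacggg
IL11: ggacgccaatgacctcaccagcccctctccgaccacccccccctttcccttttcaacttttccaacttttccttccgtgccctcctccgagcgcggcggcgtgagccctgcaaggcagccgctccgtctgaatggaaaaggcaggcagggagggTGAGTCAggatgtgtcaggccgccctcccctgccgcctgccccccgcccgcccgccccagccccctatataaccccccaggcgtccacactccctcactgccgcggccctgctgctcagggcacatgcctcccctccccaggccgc

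The kappaB letters stood in 577 of 35116 promoters of this length in the RefSeq table (1.64%), and in those of IL6, IL8, CXCL1, CXCL2 and CXCL3. The AP-1 letters stood in 2707 (7.71%), and in those of IL8, IL11 and IL1A. No match to either was found in the windows of IL1B and IL24. Other forms of the sites, and bases outside the windows, were not searched. The 2 motifs did not overlap in any of these promoters. In IL8 the AP-1 letters began at -137 and the kappaB letters at -91, counting the first transcribed base as 0. In CXCL1 and CXCL3 the kappaB letters began at -78, and in CXCL2 at -77. CXCL1 and CXCL3 promoters were 87.0% identical over the aligned bases, CXCL2 and CXCL3 83.6%, and CXCL1 and CXCL2 83.5%, whereas IL8 was 51.5% to 54.7% identical to the other 3. A match is a description of letters, and binding was not measured. Any part of the promoters in the changes below was not tested.

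**Figure D1:**
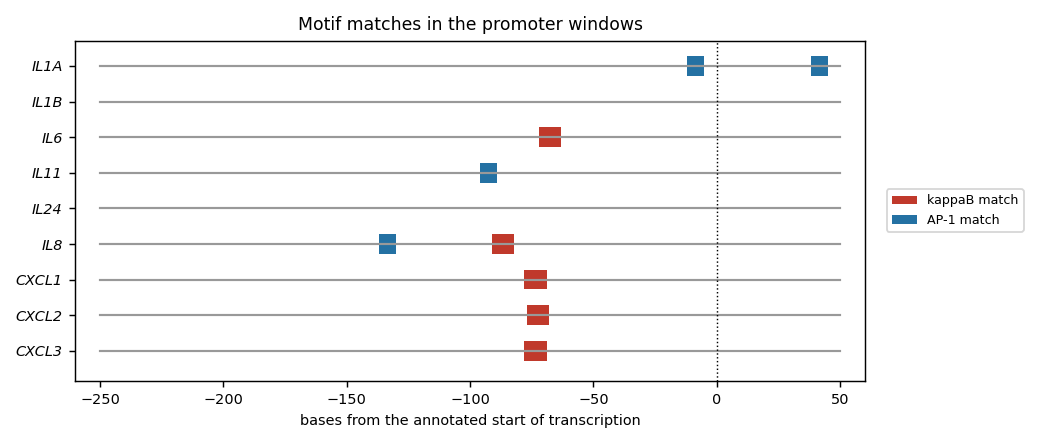
Matches to the kappaB and AP-1 motifs in the promoter windows of 9 genes, by distance in bases from the annotated start of transcription (x axis; dotted line at 0). The kappaB matches of IL8, CXCL1, CXCL2 and CXCL3 begin between -91 and -77, IL1B and IL24 have no match, and for IL1A the first of its 2 entries is drawn.

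Levels below are in CPM, the usual unit of library-scaled counts, here after TMM scaling. Total counts ran from 53267145 to 75944907 per library. A gene is called where its adjusted p from edgeR's quasi-likelihood test, over all 22668 genes, was under 0.05. Fold changes are fast over parental on the log2 scale with their standard error (SE). The first principal component, over genes with at least 1 CPM, held 79.9% of the variance of log2 CPM and the second 11.3%. VIM, the mesenchymal intermediate filament that marks this line, averaged 7074 ± 221 CPM in fast cells and 5119.7 ± 41.8 CPM in parental cells of batch 2, and 6746 ± 170.0 CPM in fast cells and 4976 ± 15.9 CPM in parental cells of batch 1 (SD, n = 3 libraries each). CDH1, the epithelial cadherin that the line lacks, reached at most 4 counts per library, and ESR1, the estrogen receptor, averaged 0.108 to 0.169 CPM over the 4 groups. Of 15 leukocyte markers, MS4A1, S100A8 and S100A9 were among those with no count in any library, and PTPRC had at most 4 counts. The 2 of the 15 that were tested made up most of their sum. CSF1R, the macrophage growth factor receptor, averaged 0.830 ± 0.236 CPM in fast cells and 1.23 ± 0.275 CPM in parental cells of batch 2, and 0.714 ± 0.142 CPM in fast cells and 1.53 ± 0.288 CPM in parental cells of batch 1 (SD, n = 3 libraries each), and fell (log2 fold change -0.83 ± 0.18, adjusted p = 0.000125, edgeR). CD14, a monocyte receptor, averaged 0.339 to 0.662 CPM over the 4 groups and was not called (0.25 ± 0.22, adjusted p = 0.349). The summed level of the 15 was 1.16 to 1.60 CPM in fast cells and 1.51 to 1.85 CPM in parental cells of batch 2, and 1.43 to 1.61 CPM in fast cells and 2.39 to 2.65 CPM in parental cells of batch 1. The 8 fibroblast markers, with DCN and LUM at 0, summed to 10.5 to 11.8 CPM in fast cells and 14.2 to 15.2 CPM in parental cells of batch 2, and to 9.13 to 9.81 CPM in fast cells and 14.6 to 16.6 CPM in parental cells of batch 1. Nearly all of that sum was COL1A1, a collagen chain, at 10.2 ± 0.709 CPM in fast cells and 13.8 ± 0.558 CPM in parental cells of batch 2, and 8.39 ± 0.322 CPM in fast cells and 14.6 ± 0.972 CPM in parental cells of batch 1, and it fell (-0.61 ± 0.06, adjusted p = 2.82e-10). PDGFRB was not called (0.19 ± 0.17, adjusted p = 0.329). The 5 endothelial markers matched, with ERG at 0, summed to 9.32 to 11.3 CPM in fast cells and 8.0 to 8.14 CPM in parental cells of batch 2, and to 11.4 to 12.1 CPM in fast cells and 9.06 to 10.5 CPM in parental cells of batch 1. Nearly all of it was KDR, a growth factor receptor, which averaged 7.80 to 11.4 CPM over the groups and rose (0.34 ± 0.06, adjusted p = 1.24e-05), while VWF, at 0.0584 to 0.194 CPM, fell (-1.17 ± 0.49, adjusted p = 0.0387). The part of these markers in the results below was not tested.

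IL11 and LIF were the most abundant of the 10 and rose in fast cells of both batches, CXCL1 fell in both, and IL8, IL24 and CXCL3 rose in batch 1 and fell in batch 2. Over both batches, 3 of the 10 genes rose (IL1A, IL11 and LIF), 1 fell (CXCL1) and 6 were not called. Over all genes tested 31.9% rose and 31.5% fell, so 63.4% were called. The median log2 fold change of the 10 was -0.14, beside 0.01 over all genes. Within batch 2, 2 rose, 6 fell and 2 were not called (background 27.4% higher and 28.6% lower, 56.0% in all). Within batch 1, 6 rose, 1 fell and 3 were not called (background 29.0% higher and 27.1% lower, 56.1% in all). The median of the 10 was -0.63 in batch 2 and 0.45 in batch 1, beside -0.01 and 0.02 over all genes.

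**Figure D2:**
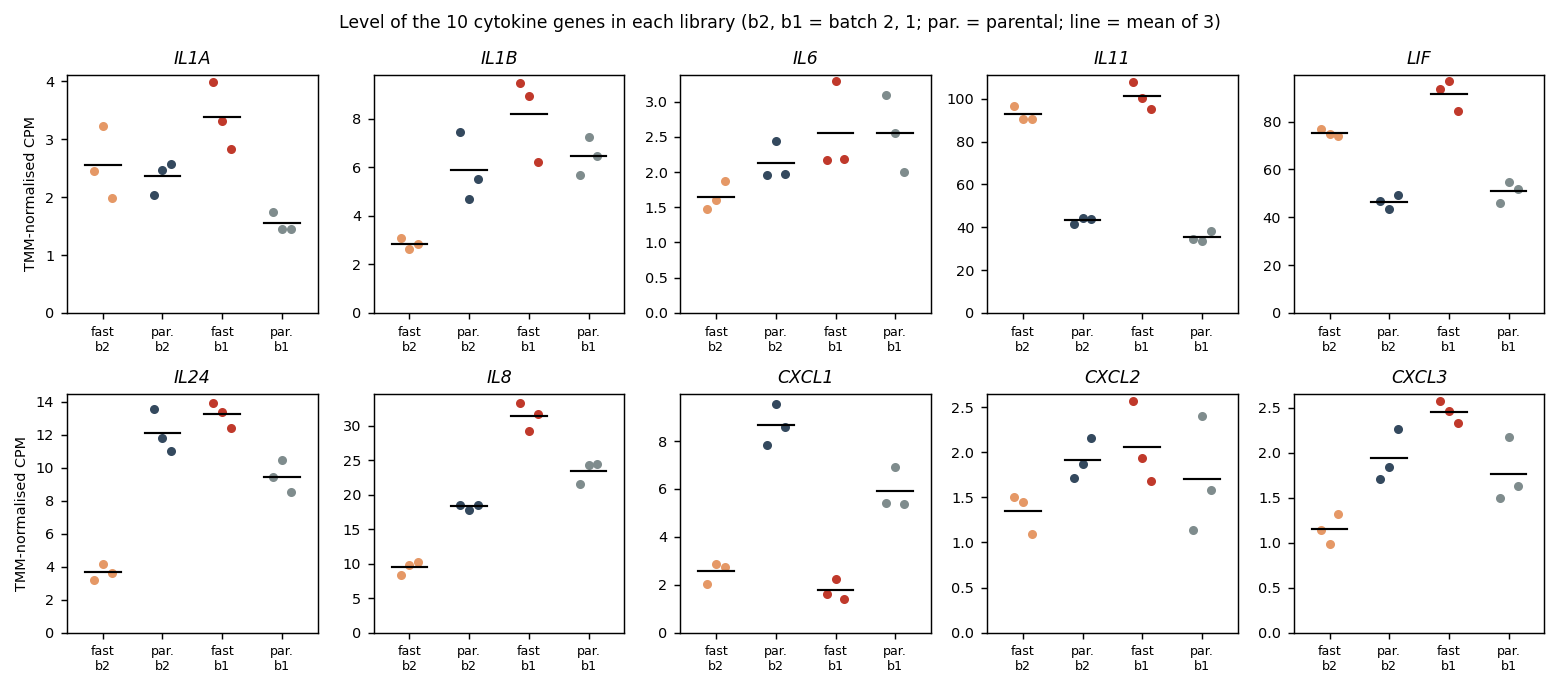
TMM-normalised CPM (y axis, from 0, one scale per gene) of the 10 genes in each library of fast and parental (par.) cells, batch 2 (b2) left of batch 1 (b1); points are libraries and the line is the mean of 3. IL11 and LIF are higher in all 6 fast than in all 6 parental libraries, CXCL1 is lower in all 6, and fast cells of batch 2 are the lowest group for IL1B, IL6, IL8, IL24, CXCL2 and CXCL3.

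Scaled by exon length, IL11 had the highest level in every group and LIF the next. IL11 averaged 34.7 CPM per kb in fast and 16.2 CPM per kb in parental cells of batch 2, and 37.8 in fast and 13.2 in parental cells of batch 1. LIF averaged 19.0 CPM per kb in fast and 11.7 in parental cells of batch 2, and 23.1 in fast and 12.8 in parental cells of batch 1. The ranges of IL11 and LIF over the 3 libraries overlapped in parental cells of batch 1 alone. IL8 came next in all 4 groups, at 4.16 CPM per kb in fast and 8.05 in parental cells of batch 2, and 13.8 in fast and 10.3 in parental cells of batch 1. The other 7 genes averaged 0.519 to 1.98 CPM per kb in fast and 0.872 to 6.68 in parental cells of batch 2, and 1.11 to 6.69 in fast and 0.727 to 4.78 in parental cells of batch 1. After IL8, fast cells of batch 2 had CXCL1 and IL24, whose ranges overlapped, then IL1A, IL1B, CXCL2 and IL6, each overlapping the next, with CXCL3 below them. In parental cells of both batches CXCL1 and IL24 also followed IL8 with overlapping ranges, IL1B came after them, and the remaining 4 genes overlapped their neighbours in the order. Fast cells of batch 1 had IL24 and then IL1B after IL8, apart from each other and from the rest, while CXCL1 stood among the 5 lowest genes, whose neighbouring ranges overlapped.

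IL11, a cytokine of the IL-6 family that in earlier work on this line was tied to bone metastasis, was higher in fast cells of both batches. In batch 2 it had 96.7, 90.6 and 90.7 CPM in fast libraries, against 41.7, 44.1 and 43.6 CPM in parental libraries. Batch 1 gave 108, 100.2 and 95.3 CPM in fast libraries, against 34.4, 33.4 and 38.2 CPM in parental libraries. All 6 fast libraries lay above all 6 parental libraries. The log2 fold change was 1.31 ± 0.08 (SE, adjusted p = 5.22e-08, edgeR), and 1.10 ± 0.05 in batch 2 (adjusted p = 1.08e-23) and 1.52 ± 0.05 in batch 1 (adjusted p = 3.21e-28). The effect was smaller in batch 2 than in batch 1, with a difference, batch 2 minus batch 1, of -0.41 ± 0.07 on the log2 scale (adjusted p = 2.28e-05).

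LIF, another IL-6 family cytokine, which signals through LIFR and gp130, had 77.0, 74.9 and 74.0 CPM in fast and 46.8, 43.6 and 49.2 CPM in parental libraries of batch 2. In batch 1 it had 93.5, 97.1 and 84.3 CPM in fast and 46.2, 54.8 and 51.7 CPM in parental libraries. The 2 populations again did not overlap. The log2 fold change was 0.77 ± 0.04 (adjusted p = 1.15e-13, edgeR), with 0.69 ± 0.05 in batch 2 and 0.85 ± 0.05 in batch 1. The difference between batches was not called, at -0.15 with an interval of 2 SE from -0.30 to -0.004 (adjusted p = 0.284). With 1 library left out it ranged from -0.21 without parental replicate 2 of batch 1 to -0.06 without parental replicate 3 of batch 2, and was called in none of these fits. AC004264.1, a gene on the opposite strand that overlaps LIF, had up to 442 counts in a library and LIF-AS1 up to 54, beside at least 2633 counts of LIF, and whether the counting used the strand is not stated in the labels or notes.

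IL6, the acute-phase cytokine that names the family, was low in all groups. It had 1.48, 1.61 and 1.87 CPM in fast and 1.96, 2.44 and 1.97 CPM in parental libraries of batch 2, and 2.17, 3.29 and 2.18 CPM in fast and 3.09, 2.56 and 2.00 CPM in parental libraries of batch 1. The 3 fast libraries of batch 2 lay below the parental ones, while those of batch 1 overlapped. IL6 was not called in batch 2 (log2 fold change -0.37, interval of 2 SE -0.73 to -0.01, adjusted p = 0.0813, edgeR) or in batch 1 (0.01, interval -0.34 to 0.36, adjusted p = 0.967). With 1 library left out, the batch 2 value ranged from -0.44 to -0.24, the smallest in size without parental replicate 2 of that batch, and the batch 1 value from -0.22 without fast replicate 2 to 0.18 without parental replicate 1 of that batch. STEAP1B and AC073072.1, which overlap IL6 on the opposite strand, had up to 48 and 61 counts, beside at least 111 counts of IL6 in any library.

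IL1A, the IL-1 form that is active without cleavage and can be released by dying cells, had 2.45, 3.23 and 1.99 CPM in fast and 2.04, 2.47 and 2.58 CPM in parental libraries of batch 2. In batch 1 it had 3.99, 3.31 and 2.83 CPM in fast and 1.74, 1.46 and 1.44 CPM in parental libraries. The populations overlapped in batch 2, and every fast library lay above every parental one in batch 1. The log2 fold change was 0.11 ± 0.16 in batch 2 (adjusted p = 0.603, edgeR), where it was -0.06 without fast replicate 2 and 0.29 without fast replicate 3, and 1.14 ± 0.17 in batch 1 (adjusted p = 2.41e-07). The effects differed by -1.03 ± 0.24 (adjusted p = 0.0047). Over both batches IL1A rose by 0.60 ± 0.17 (adjusted p = 0.00547), a call that was lost on the sums of the 3 libraries of each group (adjusted p = 0.110).

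IL1B, the IL-1 form made as a precursor and cut by caspase-1, was lower in fast cells of batch 2. It had 3.07, 2.64 and 2.84 CPM in fast and 7.45, 4.70 and 5.50 CPM in parental libraries of batch 2, and all 3 fast libraries lay below. In batch 1 the fast libraries had 9.48, 8.93 and 6.21 CPM and the parental libraries 5.70, 7.24 and 6.47 CPM, with overlap. The log2 fold change was -1.04 ± 0.16 in batch 2 (adjusted p = 9.46e-06, edgeR) and 0.35 ± 0.15 in batch 1 (adjusted p = 0.0538), and the effects differed by -1.38 ± 0.22 (adjusted p = 0.000334). The batch 1 value was close to the threshold. It was called in 9 of 20 alternatives, among them the fits without fast replicate 3 of batch 1 (0.51, adjusted p = 0.000962), without parental replicate 2 of batch 1 (0.44, adjusted p = 0.0239), and without parental replicate 1 (0.36, adjusted p = 0.0101) or 2 (0.36, adjusted p = 0.0156) of batch 2. It was lowest without fast replicate 1 of batch 1 (0.24, adjusted p = 0.200).

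IL24 differed most between the batches. This IL-10 family cytokine, which signals through receptors built from IL20RA, IL20RB and IL22RA1, had 3.18, 4.16 and 3.64 CPM in fast and 13.5, 11.8 and 11.02 CPM in parental libraries of batch 2. In batch 1 it had 13.9, 13.4 and 12.4 CPM in fast and 9.42, 10.4 and 8.50 CPM in parental libraries. All fast libraries lay below the parental ones in batch 2 and above them in batch 1. In batch 2 IL24 was 3.31-fold lower in fast cells (log2 fold change -1.73 ± 0.10, adjusted p = 2.16e-19, edgeR), and in batch 1 it was 1.4-fold higher (0.49 ± 0.09, adjusted p = 1.05e-05). The difference was -2.21 ± 0.13 (adjusted p = 1.62e-16). Over both batches the value was -0.55 ± 0.38 and was not called (adjusted p = 0.239), nor was it in any of the fits with 1 library left out (-0.72 to -0.36).

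IL8, the neutrophil attractant that binds CXCR1 and CXCR2, had 8.33, 9.80 and 10.3 CPM in fast and 18.5, 17.8 and 18.6 CPM in parental libraries of batch 2. Batch 1 gave 33.3, 29.2 and 31.8 CPM in fast and 21.5, 24.2 and 24.4 CPM in parental libraries. As for IL24, the fast libraries lay wholly below in batch 2 and wholly above in batch 1. IL8 was 1.94-fold lower in fast cells of batch 2 (log2 fold change -0.95 ± 0.07, adjusted p = 1.12e-15, edgeR) and 1.34-fold higher in those of batch 1 (0.42 ± 0.06, adjusted p = 2.75e-07). The effects differed by -1.38 ± 0.10 (adjusted p = 1.57e-14).

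CXCL1, a ligand of CXCR2, was lower in fast cells of both batches. It had 2.05, 2.88 and 2.75 CPM in fast and 7.84, 9.54 and 8.58 CPM in parental libraries of batch 2, and 1.62, 2.24 and 1.43 CPM in fast and 5.40, 6.93 and 5.37 CPM in parental libraries of batch 1. All 6 fast libraries lay below all 6 parental ones. CXCL1 was 3.36-fold lower over both batches (log2 fold change -1.75 ± 0.10, adjusted p = 3.01e-16, edgeR), with -1.76 ± 0.13 in batch 2 and -1.73 ± 0.15 in batch 1. The difference between the batches was -0.03, with an interval of 2 SE from -0.44 to 0.37 (adjusted p = 0.967). With 1 library left out it ranged from -0.16 without parental replicate 2 to 0.19 without fast replicate 2, both of batch 1.

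CXCL3, whose promoter is shown above beside that of CXCL1, had 1.14, 0.99 and 1.32 CPM in fast and 1.70, 1.84 and 2.27 CPM in parental libraries of batch 2. In batch 1 it had 2.57, 2.46 and 2.33 CPM in fast and 1.49, 2.17 and 1.63 CPM in parental libraries. The fast libraries lay below in batch 2 and above in batch 1. The log2 fold change was -0.75 ± 0.18 in batch 2 (adjusted p = 0.00052, edgeR) and 0.47 ± 0.18 in batch 1 (adjusted p = 0.0204), and the effects differed by -1.23 ± 0.26 (adjusted p = 0.00134). The batch 1 call was lost without fast replicate 1 (0.45, adjusted p = 0.0590), without parental replicate 1 (0.38, adjusted p = 0.0999) and without parental replicate 3 (0.43, adjusted p = 0.0706).

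CXCL2, the neighbour of CXCL3 in the cluster and also a ligand of CXCR2, had 1.5, 1.45 and 1.10 CPM in fast and 1.72, 1.86 and 2.16 CPM in parental libraries of batch 2. Batch 1 gave 2.57, 1.94 and 1.68 CPM in fast and 1.14, 2.40 and 1.58 CPM in parental libraries, which overlapped. The log2 fold change was -0.50 ± 0.21 in batch 2 (adjusted p = 0.0375, edgeR) and 0.27 ± 0.21 in batch 1 (adjusted p = 0.276). The batch 2 call was lost without fast replicate 2 (-0.52, adjusted p = 0.0674) or 3 (-0.35, adjusted p = 0.212), and without parental replicate 2 (-0.51, adjusted p = 0.0624) or 3 (-0.38, adjusted p = 0.178). Without parental replicate 2 of batch 1, the batch 1 value was called at 0.61 (adjusted p = 0.0177), while it was 0.09 without fast replicate 1 (adjusted p = 0.779) and 0.06 without parental replicate 1 (adjusted p = 0.824) of that batch. The difference between batches was not called (-0.77 ± 0.29, adjusted p = 0.126), except without parental replicate 2 of batch 1 (-1.10, adjusted p = 0.0188).

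CXCL1, CXCL2 and CXCL3 share some stretches of sequence, so their counts are uncertain where reads match more than one of them. Of the 1048 runs of 50 bases in a CXCL1 transcript, 60 (5.73%) also occurred in CXCL2 and 6 (0.573%) in CXCL3. Of the 1169 runs in CXCL2, 54 (4.62%) occurred in CXCL3. IL8 shared no such run with the other 3. How reads with several matches were counted is not stated in the labels or notes. The genes stand in one cluster on chromosome 4 with CXCL6, PF4V1, PF4, PPBP and CXCL5. CXCL6 and PF4V1 had no count, PF4 had at most 4, PPBP at most 1 and CXCL5 at most 10 in any library, so none of these was tested. The 17 tested neighbours of CXCL1 had a median log2 fold change of -0.26 over both batches, beside -1.75 for CXCL1 itself. For IL11, on chromosome 19, the median of 20 neighbours was 0.29, and for LIF, on chromosome 22, it was 0.19, again over both batches.

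The 2 batches were then compared through the test of the difference between their fast over parental effects. Of the 10 genes, 6 had a lower effect in batch 2 than in batch 1 (IL1A, IL1B, IL8, IL11, IL24 and CXCL3), none had a higher one and 4 were not called. By edgeR, limma-voom and DESeq2 alike, 6 were lower and none higher, and at an unadjusted p under 0.05 edgeR gave 8 lower and none higher. Over all genes, 3.65% had a lower and 1.75% a higher effect in batch 2, and 5.40% were called. The median difference of the 10 was -0.90, beside -0.02 over all genes. IL8, IL24 and CXCL3, or 3 of the 10, were called in both batches with opposite signs, as were 88 genes in all (0.388%), of which 66 (0.291%) were higher in batch 1 and lower in batch 2. IL11, LIF and CXCL1 were called in both with the same sign, as were 10435 genes (46.0%). Because the 10 genes were chosen with earlier results of these data known, these counts beside the background are descriptive.

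**Figure D3:**
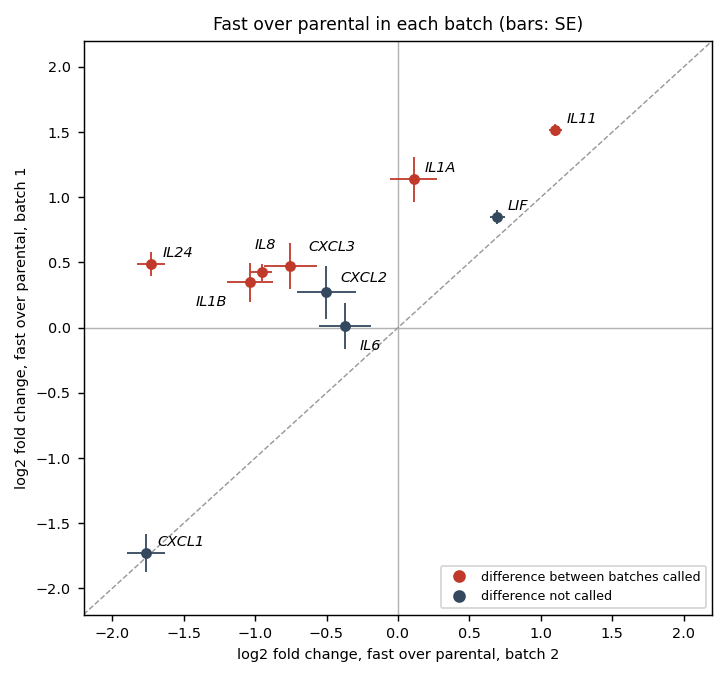
Log2 fold change of fast over parental cells in batch 2 (x axis) and batch 1 (y axis) for the 10 genes, with SE bars; the dashed line marks equal effects and red points are genes whose difference between batches was called. CXCL1 and LIF lie near the line. IL24, IL1B, IL8, CXCL3 and CXCL2 lie left of 0 on x and above 0 on y, and IL6 lies left of 0 on x and near 0 on y.

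The same contrast is also the difference between the batch shifts of the 2 populations, and each shift was tested with the libraries that the comparisons above share. In fast cells, 8 of the 10 genes were lower in batch 2 than in batch 1, 1 was higher (CXCL1) and IL1A was not called (background 15.7% lower and 11.4% higher, 27.2% in all). IL24 was 3.62-fold lower in batch 2 (log2 fold change -1.86 ± 0.10, adjusted p = 5.44e-19, edgeR), IL8 3.32-fold lower (-1.73 ± 0.07, adjusted p = 3.77e-23), IL1B 2.89-fold lower (-1.53 ± 0.16, adjusted p = 1.79e-07) and CXCL3 2.13-fold lower (-1.09 ± 0.18, adjusted p = 8.95e-06). In parental cells, 4 were higher in batch 2 (IL1A, IL11, IL24 and CXCL1), 1 was lower (IL8) and 5 were not called (background 15.2% higher and 14.8% lower, 30.0% in all). The shifts in parental cells were 0.35 ± 0.09 for IL24 (adjusted p = 0.0021), -0.35 ± 0.07 for IL8 (adjusted p = 4.9e-05), -0.15 ± 0.15 for IL1B (adjusted p = 0.527) and 0.13 ± 0.18 for CXCL3 (adjusted p = 0.630). With 1 library left out, the parental shift of IL1B ranged from -0.35 without parental replicate 1 of batch 2 (adjusted p = 0.0586) to -0.01 without parental replicate 2 of batch 2 (adjusted p = 0.979). That of CXCL3 ranged from -0.03 without parental replicate 3 of batch 2 to 0.31 without parental replicate 2 of batch 1. CXCL1 shifted by 0.52 ± 0.16 in fast cells and 0.55 ± 0.12 in parental cells.

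Some of the smaller shifts in fast cells rested on single libraries. The call of IL6 (-0.63, adjusted p = 0.00631, edgeR) was lost without fast replicate 2 of batch 1 (-0.40, adjusted p = 0.153). That of CXCL2 (-0.61, adjusted p = 0.0241) was lost without fast replicate 1 of batch 1 (-0.42, adjusted p = 0.206) or fast replicate 3 of batch 2 (-0.46, adjusted p = 0.158). That of CXCL1 (adjusted p = 0.0105) was lost without fast replicate 1 (0.45, adjusted p = 0.0645) or 3 (0.41, adjusted p = 0.0798) of batch 1 or fast replicate 2 of batch 2 (0.44, adjusted p = 0.0674). IL11 shifted by only -0.13 (adjusted p = 0.0291), and its call was lost in 8 of 19 alternatives, 5 of them with a library left out: fast replicates 1 (-0.08) and 2 (-0.13) of batch 1, fast replicates 2 (-0.09) and 3 (-0.09) of batch 2 and parental replicate 3 of batch 2 (-0.11). IL1A in fast cells (-0.41, adjusted p = 0.0557) was called without fast replicate 3 of batch 1 (-0.51, adjusted p = 0.0295) or fast replicate 2 of batch 2 (-0.59, adjusted p = 0.0136), and was smallest in size without fast replicate 3 of batch 2 (-0.23, adjusted p = 0.381). LIF in parental cells (-0.13, adjusted p = 0.0725) was called in 9 of 19 alternatives, among them those without parental replicate 1 of batch 1 (-0.20), parental replicate 3 of batch 2 (-0.21), fast replicate 3 of batch 1 (-0.13) and fast replicates 1, 2 or 3 of batch 2 (-0.16, -0.17 and -0.16), and was smallest in size without parental replicate 2 of batch 1 (-0.08, adjusted p = 0.353).

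**Figure D4:**
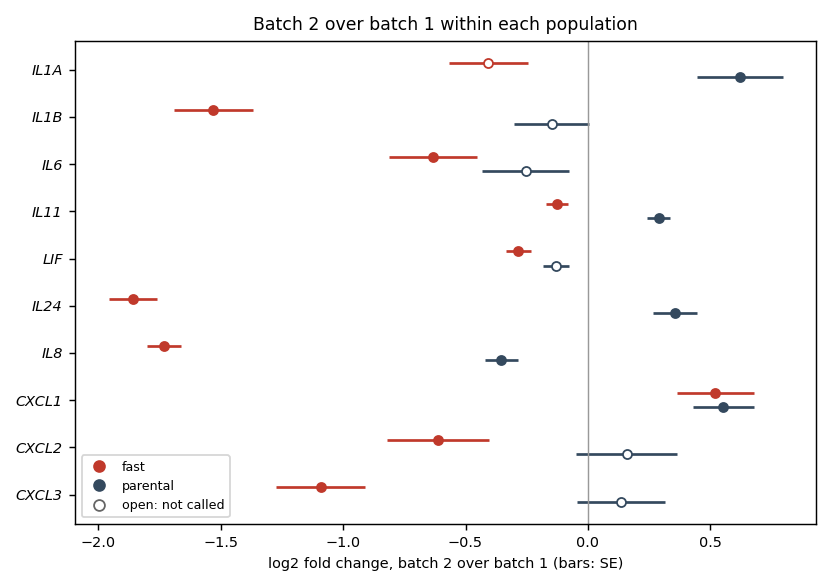
Log2 fold change of batch 2 over batch 1 (x axis) within fast (red) and parental (dark blue) cells for each of the 10 genes, with SE bars; open points were not called. IL24, IL8, IL1B and CXCL3 lie between -1.86 and -1.09 in fast cells and between -0.35 and 0.35 in parental cells, while CXCL1 is shifted alike in both.

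The receptors of these cytokines were examined in the same way. CXCR1, CXCR2 and DARC (now ACKR1), a decoy that binds chemokines, had no count in any library. A floor of 3 counts over the 12 libraries allows up to 0.00382 CPM, and this covers counting error only. Of the 13 receptor genes 9 were tested, and over both batches 4 rose, 1 fell and 4 were not called, with a median log2 fold change of 0.14 (background 31.9% higher and 31.5% lower, 63.4% in all). IL1R1, the IL-1 receptor chain that binds both IL1A and IL1B, fell 3.66-fold, with 0.259 ± 0.145 CPM in fast cells and 1.39 ± 0.0229 CPM in parental cells of batch 2, and 0.795 ± 0.222 CPM in fast cells and 2.25 ± 0.270 CPM in parental cells of batch 1 (SD, n = 3 libraries each; log2 fold change -1.87 ± 0.20, adjusted p = 4.49e-10, edgeR). IL6ST, the gp130 chain that IL6, IL11 and LIF share, rose to 243 ± 8.02 CPM in fast against 167 ± 7.49 CPM in parental cells of batch 2, and 295 ± 6.86 CPM in fast against 168 ± 14.0 CPM in parental cells of batch 1 (0.68 ± 0.06, adjusted p = 2.76e-07). LIFR, the LIF chain, rose by 0.32 ± 0.05 (adjusted p = 1.21e-07). IL1RAP, the partner chain of IL1R1, rose by 0.14 ± 0.06 (adjusted p = 0.0337), a call lost in 10 of 21 alternatives, among them those without fast replicates 1, 2 or 3 (0.12, 0.14 and 0.13) or parental replicates 1 or 3 (0.13 and 0.12) of batch 2. Between the batches, 2 of the 9 receptors had a called difference (background 5.40%), both lower in batch 2: IL6R, which binds IL6 (-1.02 ± 0.19, adjusted p = 0.000227), and IL6ST (-0.27 ± 0.06, adjusted p = 0.0039). IL6R was named after its values were seen.

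Among 16 genes of the IL-1 axis, which hold the antagonist and the proteins that process and release IL-1, 10 were tested, and 7 rose, 1 fell and 2 were not called over both batches (median log2 fold change 0.40, background 31.9% higher and 31.5% lower). IL18, an IL-1 family cytokine, rose 3.80-fold, with 10.02 ± 0.675 CPM in fast cells and 3.00 ± 0.114 CPM in parental cells of batch 2, and 13.9 ± 0.0831 CPM in fast cells and 3.23 ± 0.318 CPM in parental cells of batch 1 (1.93 ± 0.08, adjusted p = 1.91e-21, edgeR). CARD16, a regulator of caspase-1, rose by 1.01 ± 0.12 (adjusted p = 8.09e-09). GSDMD, the pore protein through which mature IL-1 leaves the cell, rose by 0.71 ± 0.03 (adjusted p = 4.92e-20), and SIGIRR, an inhibitory receptor of the family, by 0.66 ± 0.07 (adjusted p = 3.7e-10). Levels of some others follow, as means of fast against parental cells. CASP1, which encodes caspase-1, was at 1.08 against 1.11 CPM in batch 2 and 1.78 against 2.18 CPM in batch 1. PYCARD was at 2.09 against 2.07 CPM in batch 2 and 2.45 against 2.59 CPM in batch 1. NLRP1 was lower in fast cells of both batches. It was at 20.8 against 25.2 CPM in batch 2 and 19.7 against 25.4 CPM in batch 1. Whether the processing of IL-1 changed was not tested. IL1RN, the IL-1 receptor antagonist, had no count in any library. In the difference between batches 1 of the 10 was higher, 1 lower and 8 not called (background 1.75% higher and 3.65% lower).

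Of 20 related interleukins and colony-stimulating factors, 12 were tested, with 4 higher, 5 lower and 3 not called over both batches (median 0.05, background 31.9% higher and 31.5% lower, 63.4% in all). CSF3, the granulocyte colony-stimulating factor, rose by 0.77 ± 0.10 (adjusted p = 1.85e-07, edgeR) and CTF1, an IL-6 family cytokine, by 0.70 ± 0.08 (adjusted p = 7.25e-10). CNTF, of the same family, fell by 1.09 ± 0.10 on the log2 scale (adjusted p = 1.06e-11), and IL32, an inducer of other cytokines, fell by 1.61 ± 0.16 (adjusted p = 9.04e-11). Of 23 other chemokines only 6 were tested, and 3 fell, none rose and 3 were not called (median -0.46, against the same background). CXCL16, the ligand of CXCR6, had a log2 fold change of -0.58 ± 0.15 (adjusted p = 0.000743), and CCL28, a mucosal chemokine, of -0.49 ± 0.09 (adjusted p = 1.72e-05). No chemokine rose over both batches by edgeR, limma-voom or DESeq2, nor by edgeR at an unadjusted p under 0.05. No chemokine of this list had a called difference between batches by any of the 3 tools (background 5.40%). By edgeR, 2 were lower at an unadjusted p under 0.05. The median difference of the 6 tested was -0.55, beside -0.90 for the 10 cytokine genes and -0.02 over all genes. Of the 12 related cytokines, 2 were lower in batch 2 (background 3.65%), and their median difference was -0.16.

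The 24 signal carriers of IL-1 and IL-6 type receptors were all tested, and 9 rose, 9 fell and 6 were not called (median -0.03), near the background of 31.9% higher and 31.5% lower. SOCS1, a feedback inhibitor of JAK kinases, fell 2.29-fold (log2 fold change -1.20 ± 0.13, adjusted p = 5.21e-10, edgeR), and TAB3, an adaptor of the kinase downstream of IL-1, by 1.65-fold (-0.72 ± 0.05, adjusted p = 1.19e-15). STAT5A, a JAK-activated transcription factor, rose by 0.69 ± 0.05 (adjusted p = 8.57e-14), and SOCS2 by 0.65 ± 0.04 (adjusted p = 1.39e-15). None of the 24 had a called difference between batches (background 5.40%) by edgeR or limma-voom, and DESeq2 called 2 higher in batch 2. At an unadjusted p under 0.05 edgeR gave 2 higher and 4 lower.

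Of 20 regulators of cytokine transcription and mRNA decay, all tested, 12 rose, 5 fell and 3 were not called over both batches (median 0.26, background 31.9% higher and 31.5% lower). In the difference between batches, 8 had a lower effect in batch 2, 1 had a higher one and 11 were not called, with a median of -0.11 (background 3.65% lower and 1.75% higher). ZFP36, which binds AU-rich elements and speeds decay, had 10.1 ± 0.474 CPM in fast cells and 7.95 ± 0.665 CPM in parental cells of batch 2, and 16.9 ± 1.59 CPM in fast cells and 8.70 ± 1.10 CPM in parental cells of batch 1 (SD, n = 3 libraries each). It rose by 0.66 ± 0.11 over both batches (adjusted p = 5.58e-05, edgeR), and its effect was lower in batch 2, with a difference of -0.61 ± 0.12 (adjusted p = 0.000885). NFKBIZ, a nuclear cofactor of NF-kappaB needed for IL6 induction in mice, rose by 0.63 ± 0.12 (adjusted p = 0.000591), with a difference of -0.62 ± 0.12 (adjusted p = 0.000338). RC3H2, which also promotes decay, rose by 0.77 ± 0.03 (adjusted p = 7.85e-21). ZC3H12C rose by 0.45 ± 0.08 (adjusted p = 0.000594), a call lost on the sums of the libraries (adjusted p = 0.0809).

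ATF3, a stress-induced transcription factor named after its values were seen, had 4.60 ± 0.449 CPM in fast cells and 5.84 ± 0.137 CPM in parental cells of batch 2, and 9.38 ± 0.953 CPM in fast cells and 3.88 ± 0.308 CPM in parental cells of batch 1 (SD, n = 3 libraries each). Its effects differed by -1.62 ± 0.15 (adjusted p = 8.07e-11, edgeR), while over both batches it was not called (0.46 ± 0.28, adjusted p = 0.177).

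**Figure D5:**
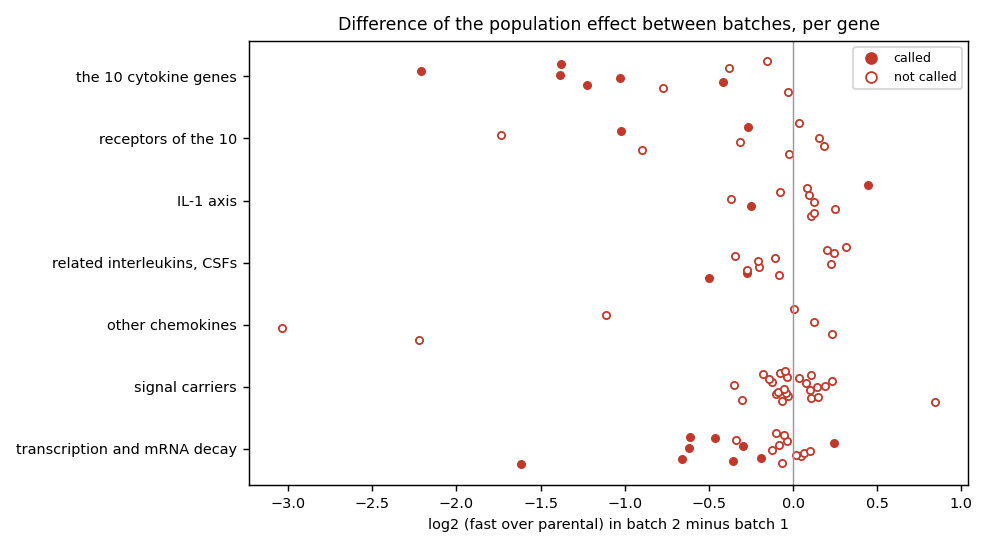
Difference of the fast over parental log2 fold change, batch 2 minus batch 1 (x axis), for each tested gene of the 10 cytokine genes and of 6 lists of related genes (rows; vertical spread within a row has no meaning). Filled points were called: 6 of the 10 cytokine genes, all below 0, and 9 of the 20 regulators, 8 of them below 0. None of the 24 signal carriers and none of the 6 other chemokines were called (5.40% over all genes). The median was -0.55 for the 6 other chemokines and -0.90 for the 10 cytokine genes.

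The genes whose pattern over the 12 libraries was most like that of each cytokine were found by the root-mean-square difference of centred log2 CPM, over genes with a mean of at least 5 CPM. IL1B and IL8 were each other's closest match, at 0.248. For both, the next gene bears a microRNA symbol in the table and a host transcript's in the current annotation, and is not named. IL24 was closest to EGR1, an immediate early transcription factor (0.205), and then to IL1B (0.327). IL11 was closest to FTL, the ferritin light chain (0.0801), and LIF to CNTNAP1 (0.0550) and ACADVL (0.0756). IL1A was closest to TRAF1, an adaptor of the TNF receptor family (0.250), and PPP1R15A (0.251). CXCL1 was closest to LSR (0.225) and NOG (0.229), CXCL2 to BCL6 and ZNF8 (both 0.263), CXCL3 to SPRY2 (0.235) and KLF5 (0.253), and IL6 to ANKRD29 (0.190) and GAREM (0.195). Among the 10 cytokine genes themselves the next closest pairs were CXCL2 and CXCL3 (0.287), IL1B and CXCL3 (0.318), and IL11 and LIF (0.323), and the farthest were CXCL1 and IL11 (1.57).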

How the data were processed

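Per the submitters' processing notes, reads were handled with Trimmomatic 0.32, STAR 2.3.0e and featureCounts 1.4.4 on builds hg19 and GRCh37; their settings for strand and multiple matches are not stated in these sources. The values deposited by the authors are raw, not normalized read counts of 60234 genes in 12 libraries, and 0 columns were left unmatched to a sample. Genes were kept by edgeR's filterByExpr (minimum count 10, minimum total 15), scaled by TMM and tested with the quasi-likelihood test of edgeR 4.0.16 (R 4.3.3, robust), with batch as a term or with 1 mean per group, and Benjamini-Hochberg adjustment over 22668 genes. limma 3.58.1 and DESeq2 1.42.0 served as alternatives. The scripts were tested on simulated data. Of each list, up to 4 genes were named by rule: called over both batches, with the same sign in each, a mean of at least 1 CPM and the largest change. The other tested genes of the IL-1 axis were named outside this rule. Members, lists and tests were chosen with earlier results of these data known. Exon lengths and gene order came from GENCODE 29 by gene ID, and promoters from RefSeq on GRCh38.p14. Some genes of the marker and likeness results are not reported here. Shared runs of 50 bases were counted in transcripts.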

Additional observations from a re-analysis of the deposited data

Results flagged for a closer look

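For 6 of the 10 genes the fast over parental effect differed between the batches by the test of the difference itself (edgeR's quasi-likelihood test, adjusted over 22668 genes, of which 5.40% were called). The effect in batch 2 minus that in batch 1, on the log2 scale, was -2.21 for IL24, -1.38 for IL8, -1.38 for IL1B, -1.23 for CXCL3, -1.03 for IL1A and -0.41 for IL11. IL24, IL8 and CXCL3 were called with opposite signs in the batches. IL11 was called higher in fast cells of both. IL1B was called in batch 2 only and IL1A in batch 1 only. Each batch holds both populations in libraries described as technical replicates, so a difference between the cells of the batches and one in their handling cannot be told apart.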

How the results depend on the processing

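The 6 comparisons of 10 genes gave 60 results, of which 41 kept their direction and their side of the threshold under every alternative, 13 lost or gained a call and 6 changed sign. The counts of genes and of cytokine genes called stayed within 1.5 times the reported ones. Signs changed only for values that were not called. IL6 in batch 1 was -0.013 under RLE scaling, -0.024 with no filter, -0.029 with genes under a mean of 1 CPM left out, -0.011 with only the libraries compared, -0.026 with those and a replicate block, -0.016 by DESeq2, and -0.22 to 0.18 with 1 library left out. The difference between batches of CXCL1 was 0.028 with no filter, 0.0035 with those genes left out, 0.0039 by DESeq2 and -0.16 to 0.19 with 1 library left out. With 1 library left out, CXCL3 over both batches ranged from -0.22 to 0.0045, IL1A in batch 2 from -0.059 to 0.29, and batch 2 over batch 1 in parental cells from -0.057 to 0.48 for CXCL2 and from -0.030 to 0.31 for CXCL3. IL24 over both batches was called in the fit that was not robust (adjusted p = 0.0464). IL1B in batch 1 was also called by limma-voom (adjusted p = 0.0302). CXCL3 in batch 1 was not called with no filter (adjusted p = 0.0514), nor CXCL2 in batch 2 by DESeq2 (adjusted p = 0.0563), nor the shift of CXCL1 in fast cells by limma-voom (adjusted p = 0.0544). The cause was not tested. RLE scaling moved the median of all genes by at most 0.03. Libraries of the 2 populations with the same replicate number in their titles did not deviate together (correlations -0.077 to 0.074 over 6 pairs). The labels give no shared source. The column headers number some libraries of batch 1 otherwise, and pairing by those numbers was not tested. With a replicate block, 13966 genes and 4 of the 10 were called over both batches, against 14374 and 4 without it. With only the libraries compared, IL1B in batch 1 passed the threshold by edgeR. It did so with a replicate block (0.31, adjusted p = 0.00972) and without one (0.33, adjusted p = 0.0324). The lowest levels, near 1 CPM for CXCL2 and CXCL3, limit the precision of their changes.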
